A study of Caenorhabditis elegans with 6 samples.

Results

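The fbxa genes of Caenorhabditis elegans are one of its families of F-box genes. Members were taken by their WormBase symbol, fbxa followed by a number, which gave 170 of the 46756 genes counted. They carry 169 symbols, because fbxa-41 names a pair of loci on chromosome X. The tested worms were hermaphrodites of strain ACH93 on adulthood day 2, grown 10 to a plate, and they were set against solitary hermaphrodites of the same strain and age, grown 1 to a plate. Whole-organism polyA RNA was sequenced, with 3 libraries, labelled as biological replicates, for each condition. All worms carried wacIs1 and wacIs14, transgenes that mark exophers (large vesicles released by muscle) and mitochondria with fluorescent proteins under the myo-3 promoter of body wall muscle, on an N2 background. All were fed E. coli OP50. The comparison asks which transcripts differ between hermaphrodites that grew up among others and hermaphrodites that grew up alone.

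An F-box protein is the exchangeable part of an SCF ubiquitin ligase. A cullin forms the scaffold, a RING protein (RBX) brings in the ubiquitin-conjugating enzyme, an adaptor related to Skp1 (SKR in worms) holds the F-box, and the rest of the F-box protein chooses the substrate. In most FBXA proteins the F-box is followed by an FTH domain, named after FOG-2, the F-box protein that promotes sperm formation in hermaphrodites. F-box genes of this kind are known for gene duplication and fast turnover in nematodes, and few members have a known substrate. In C. elegans FBXA-75 and FBXA-158 are known partners of the cullin CUL-6 in a ligase that acts in the response to intracellular pathogens and in tolerance of heat.

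The libraries held between 55176436 and 62794403 counts on genes, and between 20105 and 20701 genes had a count in each. Marker genes of germline, intestine, body wall muscle and neurons were present in every library, and none of the markers had an adjusted p under 0.05 in edgeR. In DESeq2 1 did, the epidermal collagen gene col-19 (adjusted p = 0.0220). Of the 5 sperm markers, msp-142 and ssp-16 were at 0 in all libraries, while gsp-3, gsp-4 and spe-9 averaged under 1 CPM (counts scaled to library size by edgeR's TMM method, on the usual CPM scale) in each condition. Epidermal markers varied in different ways. col-19, the most abundant, had 128, 179 and 160 CPM at 10 per plate, all below the 216, 188 and 190 CPM of solitary worms (log2 fold change -0.35, SE 0.14, adjusted p = 0.434 in edgeR). Other epidermal markers set single libraries apart. The collagen gene rol-6 had 1, 4 and 154 counts in worms grown 10 per plate, against 3, 135 and 4 in solitary worms. The collagen gene dpy-7 had 179, 155 and 178 counts at 10 per plate and 139, 270 and 12 in solitary worms. The third library at 10 per plate and the second solitary library were thus high in rol-6, and the third solitary library was low in dpy-7. The part of these differences in the values below was not tested. In whole-worm RNA, fewer cells of a type and less RNA per cell cannot be told apart.

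Most of the family was detected, at low levels. A count was found for 165 of the 170 genes, and 136 had a count in every library. The number of members with a count was 149, 146 and 154 in the libraries at 10 per plate, against 148, 150 and 152 in the solitary libraries, so the conditions overlapped. A minimum of 10 counts summed over the 6 libraries was passed by 146 members (85.9%), and 19 others had between 1 and 9 counts. The remaining 5 (fbxa-35, fbxa-75, fbxa-221 and both loci of fbxa-41) had no count in any library. In a single library 3 counts, the upper limit that a count of 0 allows, corresponded to 0.0484 to 0.0551 CPM. These limits cover counting error only.

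The minimum split members of nearly equal level. Just at or above it stood fbxa-164 with 10 counts and fbxa-100 and fbxa-45 with 11 each. Just under it stood fbxa-126 with 9, fbxa-7 with 8 and fbxa-86 with 7. By mean CPM, 16 members lay above 10, 58 between 1 and 10, 48 between 0.1 and 1 and 43 above 0 and up to 0.1. On a scale that allows for length (CPM per kb of exon), the median tested member lay at percentile 34.2 of all 18428 genes tested.

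Abundance was concentrated in few genes. The most abundant member, fbxa-215 (WBGene00012879, chromosome IV of WBcel235, 13665364 to 13666909, 5 exons), took 41.4% of all counts on the family. Its level was 409, 434 and 441 CPM at 10 per plate and 423, 417 and 439 CPM in solitary worms, and the libraries of the conditions were interleaved. The means were 428 ± 16.6 and 426 ± 11.6 CPM (SD, n = 3 each), and the log2 fold change was 0.00 (SE 0.04). Per kb of exon its level was 318 CPM, 7.49 times that of the next member, and it stood at percentile 98.2 of the genes tested. The 5 most abundant members together held 60.4% of the family's counts, and the 10 most abundant held 71.0%.

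Levels per kb of exon in the next 4 members lay close together. They were 42.4 CPM per kb for fbxa-60 on chromosome III, 41.5 for fbxa-210 and 40.3 for fbxa-206 on V, and 36.6 for fbxa-101 on I. Over the single libraries fbxa-60 ranged between 35.9 and 46.4 CPM per kb, a range that holds the values of fbxa-210 (40.0 to 43.0) and overlaps those of fbxa-206 (36.9 to 41.7) and fbxa-101 (36.0 to 38.0). Neighbours in this order overlapped in their libraries, whereas all libraries of fbxa-210 lay above all libraries of fbxa-101. A step down followed, to fbxa-107 at 25.8 CPM per kb (24.8 to 26.5). The rest of the 10 were fbxa-114 (18.5), fbxa-72 (17.5), fbxa-95 (16.9) and fbxa-170 (14.4), whose ranges overlapped from neighbour to neighbour except for fbxa-170, which lay below all libraries of the other 9.

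**Figure D1:**
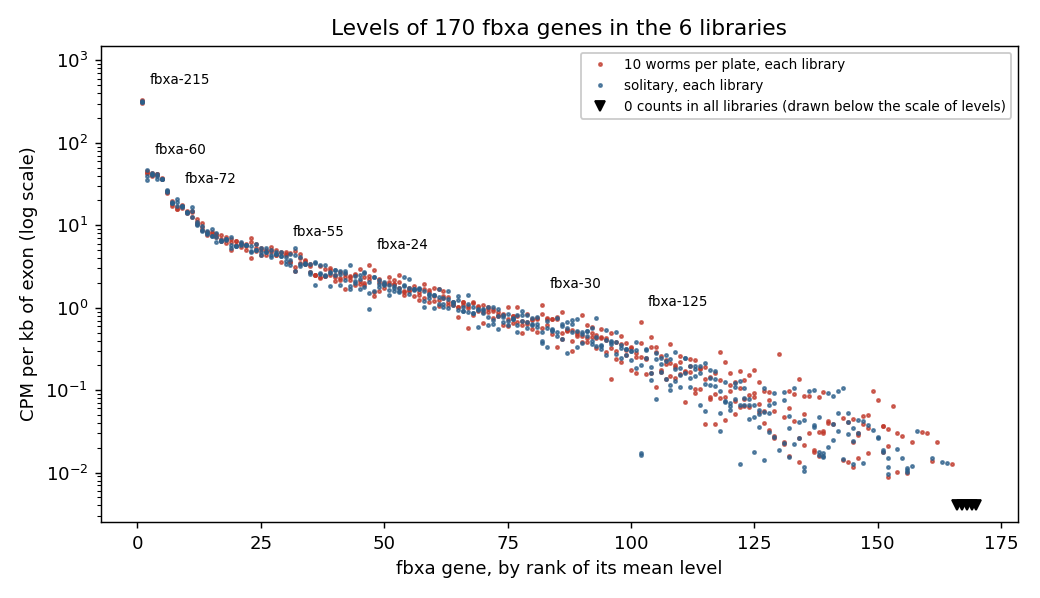
Level of each fbxa gene in each library (CPM per kb of exon, log axis) against the rank of its mean level. Red points are libraries of worms grown 10 per plate, blue points are solitary libraries, a library at 0 for a gene is not drawn, and triangles mark the 5 genes at 0 in all libraries. fbxa-215 stands alone at 318 CPM per kb, and the spread between libraries widens toward the rare members.

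Most of the 10 most abundant members varied little within a condition, with pooled SDs of log2 CPM between 0.03 and 0.08 in 8 of them, and 0.10 in fbxa-72 and 0.14 in fbxa-60. Of these, fbxa-60 had 56.3, 53.3 and 52.7 CPM at 10 per plate and 56.8, 48.6 and 43.9 CPM in solitary worms. fbxa-101 had 41.9, 40.8 and 43.1 CPM at 10 per plate, against 41.7, 40.9 and 41.0 CPM in solitary worms. fbxa-170 had 22.1, 22.9 and 21.7 CPM at 10 per plate and 22.1, 22.5 and 21.5 CPM in solitary worms. In these genes the conditions overlapped, and the log2 fold changes were 0.12 (SE 0.08) for fbxa-60, 0.03 (SE 0.05) for fbxa-101 and 0.01 (SE 0.07) for fbxa-170. Of the 10 most abundant members only fbxa-72 had conditions that did not overlap and an unadjusted p under 0.05. The fitted log2 fold changes of the other 9 lay between -0.04 and 0.12.

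Summed over the family, transcript abundance lay between 1018 and 1048 CPM in all libraries. The sum was 1024, 1048 and 1040 CPM at 10 per plate and 1037, 1023 and 1018 CPM in solitary worms, so that the conditions overlapped, with means of 1037 ± 12.5 and 1026 ± 10.1 CPM (SD, n = 3 each). Without fbxa-215 the sums were 615, 615 and 599.5 CPM at 10 per plate, against 614, 606 and 579 CPM in solitary worms. The lowest of these was the third solitary library, the one low in dpy-7.

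All 170 members are annotated as protein-coding, and they are compact genes. Median exonic length was 1135.5 nt (quartiles 1021 and 1319), the longest annotated protein of a member had a median of 314.5 amino acids, the median number of exons was 4, and 141 members have a single annotated transcript. Chromosome V held 71 members and chromosome III held 60, followed by II and X with 14 each, I with 6 and IV with 5. Tested members were 62 of 71 on V, 53 of 60 on III, 11 of 14 on both II and X, 6 of 6 on I and 3 of 5 on IV. The median level was 4.68 CPM per kb on I, 3.55 on IV, 0.720 on III, 0.459 on V, 0.450 on II and 0.0471 on X. On X, 5 of the 14 members were above 1 CPM per kb, led by fbxa-170 and fbxa-120 (6.05), and the others were at 0.475 CPM per kb or less. On I, 4 of the 6 were above 1 CPM per kb.

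Members lie in local groups. With starts up to 20 kb apart taken as one group, 117 members fell into 25 groups and 53 lay alone. The 3 largest groups are all on the left part of chromosome III and hold 51 members. The group at 1239048 to 1349450 holds 26 members, of which 23 were tested and 2 (fbxa-35 and fbxa-75) were at 0. None of its genes was abundant, with a median of 0.938 and a highest level of 3.90 CPM per kb, in fbxa-76. The group at 2219708 to 2314035 holds 15 members (14 tested) with a median of 0.237 and a highest level of 1.47 CPM per kb.

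The group at 933422 to 963833 holds 10 members (8 tested) and has the highest median of the 3, 2.89 CPM per kb. Its levels ran between 0.0108 CPM per kb in fbxa-22 and 42.4 CPM per kb in fbxa-60, although these genes lie within 30.4 kb. Other neighbours differed as widely. On chromosome V fbxa-44, fbxa-45 and fbxa-206 lie within 29.2 kb, and their levels were 0.327, 0.0354 and 40.3 CPM per kb. At 18123939 to 18128888 on V, by contrast, fbxa-107, fbxa-210 and fbxa-211 stand head to tail on the plus strand and were all well expressed, at 25.8, 41.5 and 6.67 CPM per kb.

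**Figure D2:**
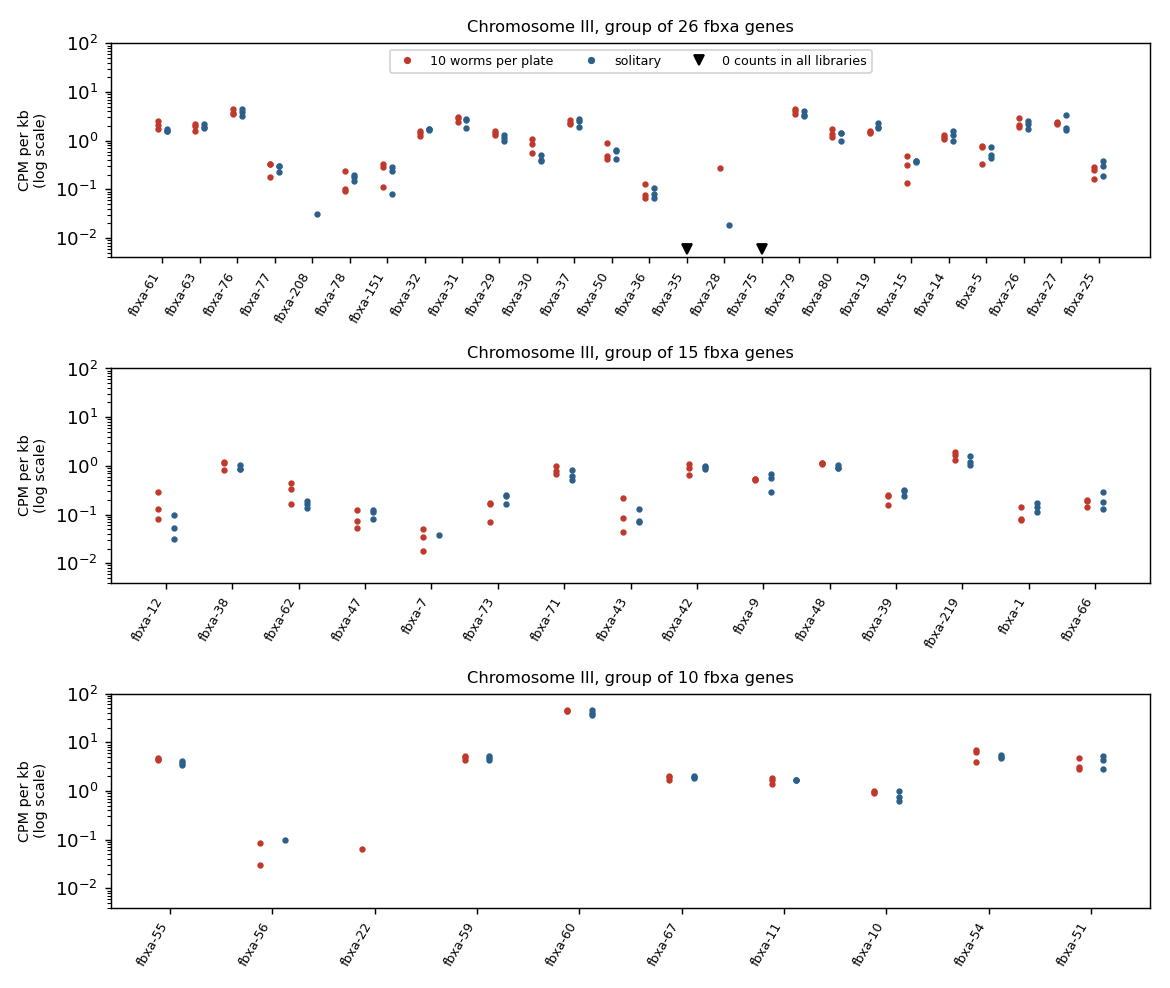
Level (CPM per kb of exon, log axis) of each member of the 3 largest groups on chromosome III, in genomic order. Red points are libraries at 10 per plate and blue points are solitary libraries, a library at 0 for a gene is not drawn, and triangles mark genes at 0 in all libraries. Neighbouring genes differ by orders of magnitude in the group that holds fbxa-60 at 42.4 CPM per kb, while the red and blue points of its well expressed genes overlap or lie close.

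None of the members reached the threshold between the conditions. In edgeR (quasi-likelihood F test, p adjusted by Benjamini-Hochberg over all genes tested), 0 of 146 members had an adjusted p under 0.05, and the smallest was 0.229. Among all 18428 genes tested, 44 (0.239%) had an adjusted p under 0.05, and 2 of them (0.0109%) had a log2 fold change past -1 or 1 as well. At an unadjusted p under 0.05 there were 8 members (5.48%), against 11.9% of all genes tested. DESeq2 gave an adjusted p to 35 of the 146 members, of which 0 were under 0.05. Of all 18428 genes tested, 9136 were given an adjusted p in DESeq2. Among these 9136, 435 were under 0.05, which is 2.36% of the 18428. It gave 7 members at an unadjusted p under 0.05, against 10.3% of all genes at that unadjusted p. Among these 7, fbxa-24, fbxa-30, fbxa-69, fbxa-100 and fbxa-125 were given no adjusted p in DESeq2. The 0 members under 0.05 there thus say nothing about them. The replicates measure only the spread between these libraries, since the labels do not say how the cultures were separated.

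In direction, 5 of the 146 members tested were higher and 3 of the 146 lower at 10 per plate with an unadjusted p under 0.05. Of all genes tested, 5.19% were higher and 6.71% lower at that p. Over all tested members the fitted value was above 0 in 81 and below 0 in 65, which is 55.5% above 0 against 50.6% of all genes. The median log2 fold change was 0.02 (quartiles -0.10 and 0.26), against 0.00 for all genes. The median log2 deviation of tested members from their mean was 0.0377, 0.0401 and 0.0377 in the libraries at 10 per plate. In the solitary libraries it was 0.0178, 0.0080 and -0.0550, so the conditions did not overlap, by a small margin. For all genes the deviations lay between -0.0031 and 0.0118, and the conditions overlapped. Scaling by total counts without TMM gave 93 above and 53 below (63.7%), with a median of 0.05, against 56.9% above 0 and a median of 0.03 for all genes under that scaling. Conditions did not overlap in 21 members (14.4%), against 18.3% of all genes tested. In 14 of the 146 members all libraries at 10 per plate lay above, against 8.51% of all genes tested. In 7 of the 146 all lay below, against 9.83%.

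Depth sets how far these counts can be read. Of the tested members 46 had a mean count under 20, and 59 had a mean count of at least 100. All 11 members with an absolute fitted log2 fold change above 1 (7.53%, against 5.80% of all genes) were among those with a mean count under 20. For the 80 members with a mean count of at least 50, 5 (6.25%) had an unadjusted p under 0.05 and 13 (16.3%) had conditions that did not overlap. Of all 11847 genes with that mean count, 16% and 22.5% did.

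**Figure D3:**
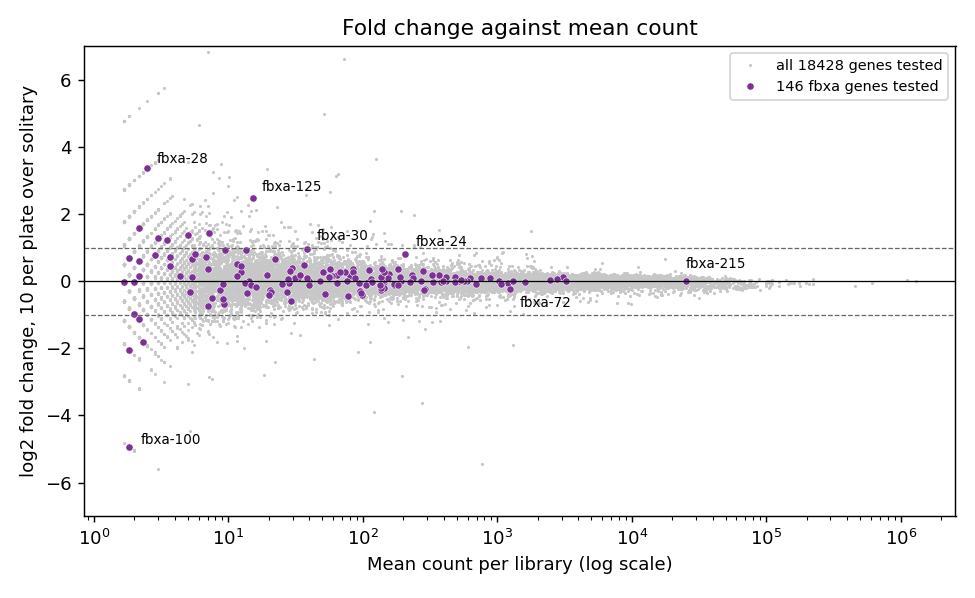
Fitted log2 fold change (10 per plate over solitary) against mean count per library (log axis) for all 18428 genes tested (grey) and the 146 fbxa genes tested (purple). Dashed lines mark log2 fold changes of -1 and 1. The purple points past the dashed lines all have a mean count under 20, and fbxa-215 lies at 0.00.

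The 5 members with the smallest unadjusted p among those higher at 10 per plate were fbxa-30, fbxa-125, fbxa-24, fbxa-55 and fbxa-69. None passed the adjusted threshold. fbxa-30 (WBGene00013837, chromosome III, 1274425 to 1275613), a member of the largest group, had 36, 67 and 51 counts at 10 per plate and 21, 25 and 31 counts in solitary worms. All libraries at 10 per plate lay above all solitary ones. The means were 0.859 ± 0.273 and 0.443 ± 0.0778 CPM (SD, n = 3 each), the log2 fold change was 0.95 (SE 0.30), with an adjusted p of 0.229 in edgeR.

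fbxa-125 (WBGene00015229, chromosome I, 10646478 to 10647841) had 23, 40 and 15 counts at 10 per plate, against 11, 1 and 1 counts in solitary worms. Its conditions did not overlap, and the first solitary library held most of the solitary counts. The means were 0.433 ± 0.215 CPM at 10 per plate and 0.0786 ± 0.107 CPM in solitary worms, with a log2 fold change of 2.48 (SE 0.78) and an adjusted p of 0.264 in edgeR. Without that first solitary library the log2 fold change was 4.52 (adjusted p = 0.176). With no count minimum the adjusted p was 0.000126 at a log2 fold change of 2.47, the only setting that called fbxa-125.

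fbxa-24 (WBGene00018803, chromosome II, 3816526 to 3818238) had 338, 243 and 220 counts at 10 per plate, against 137, 99 and 199 counts in solitary worms. The third solitary library came near the lowest library at 10 per plate, and the conditions did not overlap. Mean levels were 4.43 ± 0.899 and 2.52 ± 0.892 CPM (SD, n = 3 each), the log2 fold change was 0.82 (SE 0.26), with an adjusted p of 0.277 in edgeR. Its call depended on a single library, and its adjusted p also on the count minimum. Without the third solitary library, the one low in dpy-7, the log2 fold change was 1.10 and the adjusted p 0.0421, and with no count minimum they were 0.81 and 0.000221, which is not past a log2 fold change of 1. The same fit without that library called 70 genes in all.

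The other higher members had smaller fitted differences. fbxa-55 (chromosome III, in the group of fbxa-60) had 320, 298 and 316 counts at 10 per plate, against 231, 282 and 223 counts in solitary worms. fbxa-69 (chromosome V) had 196, 202 and 229 counts at 10 per plate and 128, 186 and 157 counts in solitary worms. In neither gene did the conditions overlap in CPM, and the log2 fold changes were 0.29 (SE 0.12, adjusted p = 0.373 in edgeR) for fbxa-55 and 0.37 (SE 0.15, adjusted p = 0.373 in edgeR) for fbxa-69.

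On the lower side the smallest unadjusted p belonged to fbxa-100, fbxa-72, fbxa-19, fbxa-218 and fbxa-88, and the first 3 were under 0.05. fbxa-72 (WBGene00017962, chromosome V, 674886 to 676753) is the abundant one. It had 1196, 1198 and 1109 counts at 10 per plate, against 1252, 1526 and 1214 counts in solitary worms, or 19.4 ± 0.622 and 23.0 ± 2.12 CPM (SD, n = 3 each). Its conditions did not overlap in CPM, the log2 fold change was -0.24 (SE 0.08), and the adjusted p was 0.271 in edgeR.

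fbxa-100 (WBGene00008826, chromosome V) had 0 counts in all libraries at 10 per plate and 3, 2 and 6 counts in solitary worms. The limit at 10 per plate was taken as 3 counts over the group, and the 11 solitary counts were taken as exact. On that basis the solitary level was 3.80-fold the limit. This ratio leaves out the counting error of the solitary counts and the spread between libraries, so it is no firm lower bound. The adjusted p was 0.240 in edgeR. fbxa-100 passed the count minimum only through its solitary libraries.

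fbxa-19 (chromosome III, largest group) had 90, 81 and 88 counts at 10 per plate, against 120, 107 and 104 counts in solitary worms, without overlap (log2 fold change -0.41, SE 0.18, adjusted p = 0.387 in edgeR). fbxa-218 (chromosome III, annotated with a protein of only 38 amino acids) had 57, 68 and 75 counts at 10 per plate, against 83, 105 and 75 counts in solitary worms, without overlap in CPM. fbxa-88 (chromosome V) had 32, 23 and 17 counts at 10 per plate and 33, 42 and 29 counts in solitary worms, and its conditions overlapped in CPM. The log2 fold changes of fbxa-218 and fbxa-88 were -0.44 (SE 0.21) and -0.58 (SE 0.30).

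**Figure D4:**
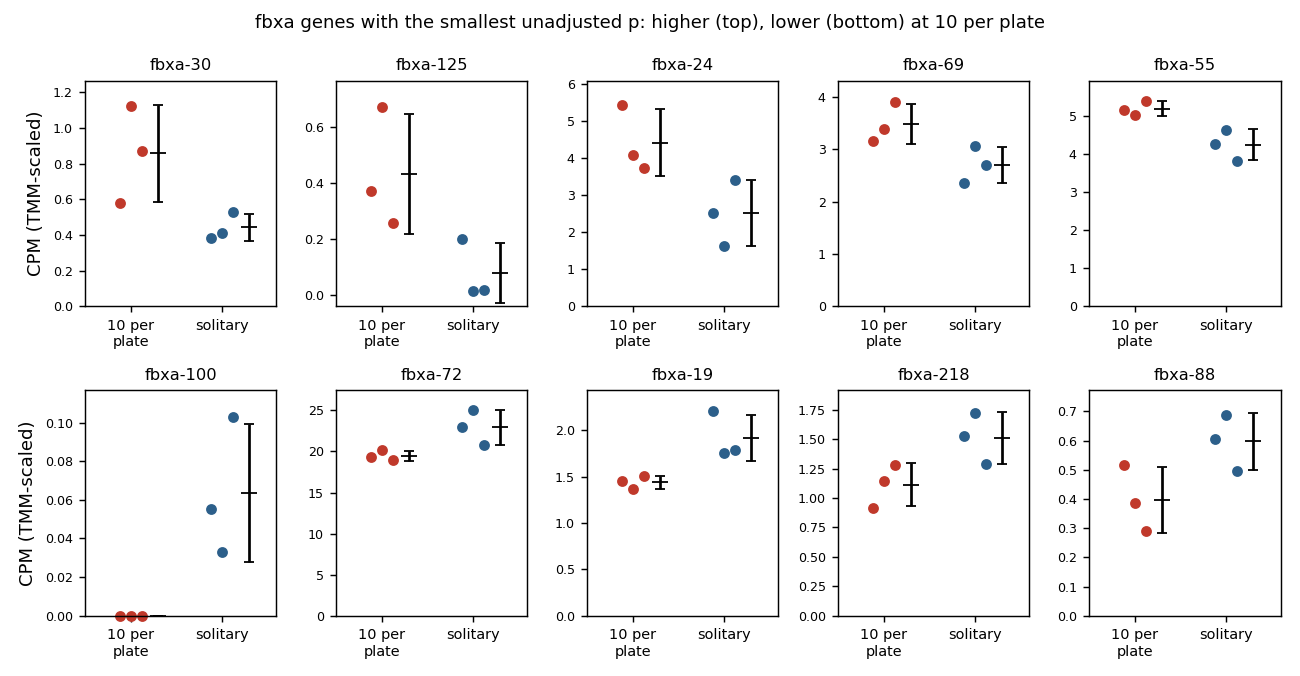
CPM in each library for the 5 members with the smallest unadjusted p among those higher (top row) and those lower (bottom row) at 10 per plate. Red points are libraries at 10 per plate, blue points are solitary libraries, and bars show mean ± SD (n = 3). fbxa-100 is at 0 in all red points, and the first solitary library of fbxa-125 lies at 0.202 CPM, well above the other solitary libraries.

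The partners of CUL-6 were at or near the limit of detection. fbxa-75 had 0 counts in all 6 libraries. fbxa-158 (chromosome II) had 5, 13 and 8 counts at 10 per plate, against 9, 1 and 5 counts in solitary worms, with overlapping conditions, a log2 fold change of 0.71 (SE 0.71) and an adjusted p of 0.759 in edgeR. The scaffold gene cul-6 itself was measured at 4.73 ± 0.214 CPM at 10 per plate and 5.34 ± 1.01 CPM in solitary worms. Its adaptors skr-3, skr-4 and skr-5 were at 33.2, 19.5 and 0.788 CPM at 10 per plate and at 33.3, 19.8 and 0.846 CPM in solitary worms, with adjusted p values between 0.910 and 0.991 in edgeR.

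By median level, cullins, RING subunits and Skp1-related genes were more abundant than the fbxa genes. Single genes departed from this. cul-6 was at 2.21 and skr-5 at 1.32 CPM per kb, while fbxa-215 at 318 CPM per kb exceeded all of these subunit genes except rbx-1 (353). The 8 cullins and RING subunits had a median of 79.2 CPM per kb of exon, and the 19 Skp1-related genes tested had 30.8, against 0.781 for the 146 fbxa members tested. cul-1, the scaffold of SCF ligases, was at 217 ± 12.6 CPM at 10 per plate and 222 ± 14.7 CPM in solitary worms. Its adaptor skr-1 was at 196 ± 3.55 CPM at 10 per plate, against 205 ± 2.28 CPM in solitary worms. The RING gene rbx-1 was at 201 ± 19.7 CPM at 10 per plate, against 224 ± 9.52 CPM in solitary worms (SD, n = 3 each).

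None of these subunit genes had an adjusted p under 0.05 in edgeR with all 6 libraries. At an unadjusted p under 0.05, cul-5 was higher and rbx-1 lower at 10 per plate among the 8 cullins and RING subunits (log2 fold changes 0.12 and -0.16), and 3 of the 19 Skp1-related genes were lower, against 6.71% of all genes tested. The smallest adjusted p among them was that of skr-18, 0.122 in edgeR, at a log2 fold change of -0.22. Its adjusted p was 0.0134 in DESeq2, 0.00224 with no count minimum and 0.0237 without the third solitary library, and that of rbx-1 was 0.0234 with no count minimum. With a trend of fold change over gene length removed, 16 of the 19 Skp1-related genes had a fitted value above 0, against 8 before. The shares of all genes above 0 were 54.8% and 50.6% in these fits. Medians were 0.11 and -0.01 for the Skp1-related genes, against 0.01 and 0.00 for all genes. With the trend removed, 1 Skp1-related gene was higher and 2 lower at an unadjusted p under 0.05. None of the 8 cullins and RING subunits then had such a p, against 6.85% of all genes. Of the 11 F-box genes with names of their own, such as lin-23 and sel-10, 10 had a fitted value above 0, with a median of 0.06. An unadjusted p under 0.05 was found for 2 (fbxl-1 and mfb-1, log2 fold changes 0.22 and 0.42). Over all genes tested, 50.6% were above 0 and 11.9% had such a p. In DESeq2 fbxl-1 had an adjusted p of 0.0482. With the length trend removed its log2 fold change was 0.13, with an adjusted p of 0.723 in edgeR. In that fit 9 of the 11 had a value above 0, with a median of 0.06, against 54.8% of all genes. fog-2 was at 55.5 ± 1.45 CPM at 10 per plate and 53.1 ± 2.67 CPM in solitary worms, and its paralog ftr-1 at 21.8 ± 0.270 and 21 ± 1.25 CPM (SD, n = 3 each).

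Spread within a condition differed between members. For members with a mean count of at least 50 the largest pooled SDs of log2 CPM were 0.46 in fbxa-141, 0.45 in fbxa-51 and 0.43 in fbxa-24. The median was 0.20 over the 36 members with a mean count of 100 to 400, against 0.18 over the 2484 genes tested in that range, of which these values stand at percentiles 94.9, 94.8 and 94.1. fbxa-141 (chromosome X) had 109, 192 and 91 counts at 10 per plate, against 145, 164 and 105 counts in solitary worms. fbxa-51 (chromosome III) had 221, 236 and 364 counts at 10 per plate and 372, 342 and 210 counts in solitary worms. In both genes the spread within each condition exceeded the difference between their means.

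fbxa-54, which lies beside fbxa-51 in the same group and was picked out after its values were seen, had 499, 433 and 270 counts at 10 per plate, against 304, 335 and 373 counts in solitary worms. Its lowest library at 10 per plate is the one in which fbxa-51 was highest, and its highest solitary library is the one in which fbxa-51 was lowest. Reads that fit several copies were not counted, and how alike the sequences of these neighbours are was not analysed here. fbxa-28 (chromosome III), likewise picked out after its values were seen, owed its fitted log2 fold change of 3.36 to a single library, with 0, 0 and 14 counts at 10 per plate and 0, 1 and 0 counts in solitary worms.

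Some members share exonic bases with another gene, where counts on genes are uncertain. This was so for 35 of the 170, with 23 overlapping a gene on the opposite strand and 16 sharing exonic bases with another fbxa gene. fbxa-112 shares 717 nt with fbxa-111, and fbxa-78 shares 928 nt with fbxa-208 on the opposite strand. Among the named members, fbxa-88 shares 352 nt with fbxa-18 and fbxa-19 shares 53 nt with fbxa-15, both on opposite strands. fbxa-35, at 0 counts, lies with 1024 nt of exon opposite the antisense RNA anr-53, which had 28 counts. Whether the counting used strand is not given in the sources used here, so reads from opposite strands cannot be told apart.

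The fold changes of the members with the smallest p kept their sign in each of the 15 alternatives that tested them. For fbxa-125 the unadjusted p stayed under 0.05 in 15 of 15, for fbxa-24, fbxa-30 and fbxa-72 in 14, for fbxa-69 in 11, for fbxa-55 in 9 and for fbxa-19 in 5. For fbxa-100 it did so in all 10 in which that gene passed the count filter, but these are no check of it. None of them left out a solitary library, where all its counts lie. With 0 counts at 10 per plate the sign of fbxa-100 could not change. The widest range belonged to fbxa-125, whose log2 fold change lay between 1.98 and 4.52. Values close to 0, such as those of fbxa-215, fbxa-210 and fbxa-95, changed sign between alternatives.

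The number of members with an unadjusted p under 0.05 was at or under the share of all genes in the fits that follow. Among genes with a mean count of at least 100, longer genes tended to be fitted higher and shorter genes lower. Median log2 fold changes were -0.16 for 56 to 634 nt of exon and 0.10 for 3425 nt or more. The trend was estimated on these genes, which include 59 of the 146 members tested, and removed from all genes. With this length trend removed 10 of 146 members had an unadjusted p under 0.05, against 6.85% of all genes. With the replicate number as a block the count was 6, against 10.4% of all genes, and with both it was 8, against 5.94%. Leaving out solitary replicate 1, 2 or 3 gave 5, 7 and 10 members, against 8.94%, 9.31% and 15.7% of all genes. Leaving out replicate 1, 2 or 3 at 10 per plate gave 7, 8 and 9 members, against 8.96%, 11% and 9.71% of all genes.

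**Figure D5:**
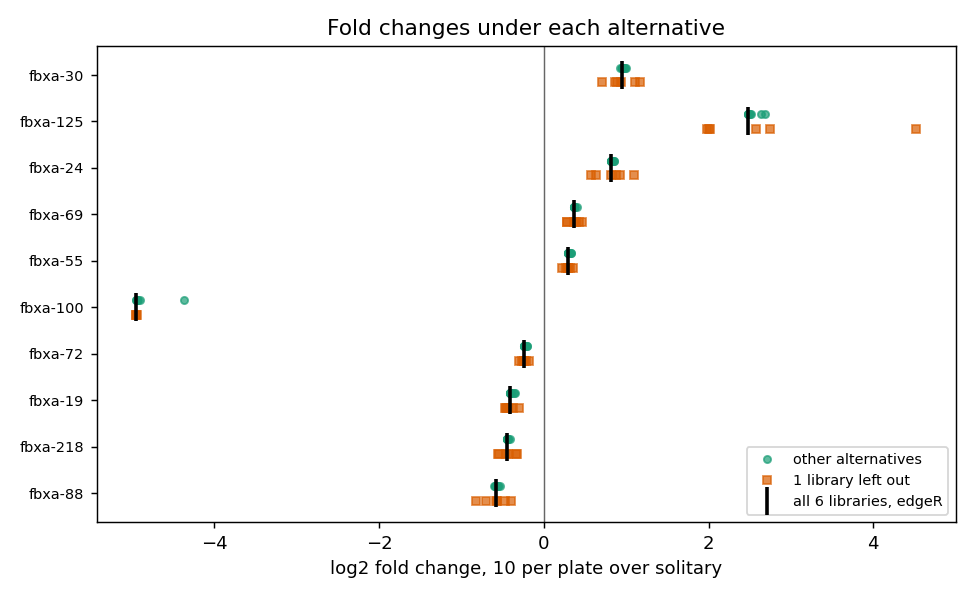
Log2 fold change (10 per plate over solitary) of the same 10 members as fitted on all 6 libraries (black bars), with 1 library left out (orange squares) and under the other alternatives (green circles). No symbol crosses 0, and fbxa-125 spreads the most, between 1.98 and 4.52. The value of fbxa-100, with 0 counts at 10 per plate, depends on the prior count of the fit and is no bound.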

How the data were processed

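PolyA RNA of whole hermaphrodites was sequenced in 6 libraries, 3 per condition. Per the labels and the study's methods, the authors trimmed reads with Trimmomatic 0.36, aligned them with STAR 2.5.2b to WBcel235 and counted unique reads within exons with featureCounts (Subread 1.5.2). They deposited whole-number counts per gene without normalization, which were used here. The authors' second table, normalized by size factors, was not used. The release of their annotation and the strand setting are not given in the sources used here. Of 46756 gene identifiers 43798 matched a symbol, and 46581 had an exonic length (union of exons) in the Ensembl annotation of WBcel235. Counting of unique reads lowers genes with near-identical copies.

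Genes with at least 10 summed counts (18428) were compared with edgeR 4.0.16 in R 4.3.3 (TMM, robust quasi-likelihood F test, condition as the only term, Benjamini-Hochberg adjustment). Called genes had both an adjusted p under 0.05 and a log2 fold change past -1 or 1. SE is the absolute log2 fold change over the square root of F. CPM are TMM-scaled. Library totals were 55176436 to 62794403, and members had few counts, which limits the precision. The fit was tested on simulated data in which only genes with a mean count of at least 100 were changed. Such a count was reached by 59 of the 146 members tested, so the simulation does not cover the others. Alternatives were DESeq2 1.42.0, its size factors, total counts, other count minimums, the replicate number as a block, removal of a length trend (lowess, span 0.3) and each library left out.

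Members and lists were chosen with earlier results of these data known. Genes named are the 10 most abundant per kb, the 5 higher and 5 lower members with the smallest unadjusted p, any with an adjusted p under 0.05, the partners of CUL-6, 3 members on each side of the count minimum (ties not listed) and the 3 with the largest spread. Other members, named for their position, overlap, level or spread, were chosen after their values were seen. Named subunits and F-box genes came from lists of cullins, RING subunits, Skp1-related genes and F-box genes.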

Additional observations from a re-analysis of the deposited data

How the results depend on the processing

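Calls were few, and their number moved with the filter and with 1 library. Of all genes, 2 were called. That was 57 with no count minimum, 1 with filterByExpr, with a mean count above 10, with total counts or with DESeq2, and 0 once the length trend was removed, with or without the replicate block. Leaving out 1 library gave 0 to 70, and the 70 came without the third solitary library. Genes with an adjusted p under 0.05 numbered 44, against 435 with DESeq2, 745 with no count minimum, 0 with the length trend removed and 0 to 391 with 1 library left out. Of the members 0 were called and 0 had an adjusted p under 0.05. With no count minimum 1 was called (fbxa-125) and 2 had an adjusted p under 0.05 (fbxa-125 and fbxa-24), and leaving out 1 library gave 0 to 1 for both counts (fbxa-24 without the third solitary library). The cause was not tested. Members with an unadjusted p under 0.05 numbered 8, and 5 to 10 with 1 library left out. The median log2 fold change of members was 0.02, with 0.0586 once the length trend was removed, 0.0683 with the replicate block as well and 0.00404 to 0.0664 with 1 library left out.

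Of the 24 named members tested, 16 kept their sign in each of the 15 alternatives that tested them. The log2 fold change of fbxa-210 was 0.0191 with total counts, 0.00992 with the trend removed and 0.00984 with the block as well. That of fbxa-107 was 0.00498 with the trend removed and 0.00484 with the block as well. That of fbxa-95 was 0.000597 with DESeq2 size factors, 0.0266 with total counts, 0.0442 with the trend removed, 0.0436 with the block as well and 0.000741 with DESeq2. That of fbxa-164 was 0.0594 with the block and 0.0934 with both. With 1 library left out, fbxa-215 lay between -0.0185 and 0.0319, fbxa-210 between -0.0400 and 0.0153, fbxa-114 between -0.11 and 0.00667, fbxa-95 between -0.0299 and 0.0243, fbxa-170 between -0.00745 and 0.0298 and fbxa-141 between -0.53 and 0.0609.

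Deviations of same-numbered libraries had correlations of 0.21, -0.30 and -0.30 for replicates 1, 2 and 3 over 10491 genes. Only replicate 1 correlated best with its own number. Since deviations are taken from means of 3 libraries, the correlations are not independent. They cannot show whether libraries of equal number were paired. The third library at 10 per plate correlated best with the second solitary one (0.44, the libraries high in rol-6) and the second with the third solitary one (0.32). The replicate block gave 2 called genes, 0 called members and 6 members with an unadjusted p under 0.05. Depth limits the 46 tested members with a mean count under 20.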

Other observations

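The other large F-box families were measured in the same libraries. Of 104 fbxb genes 101 were tested, and of 48 fbxc genes 39. Their median levels over tested members were 1.38 and 1.56 CPM per kb of exon. None had an adjusted p under 0.05 in edgeR, and 7 fbxb and 2 fbxc genes had an unadjusted p under 0.05, which is 6.93% and 5.13% against 11.9% of all genes tested. DESeq2 gave 5 and 2.

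Among fbxb genes 75 of 101 had a fitted log2 fold change above 0, with a median of 0.12, against 50.6% and 0.00 for all genes. The number above 0 lay between 56 and 86 with 1 library left out, lowest without the third library at 10 per plate and highest without the second, and the median then lay between 0.04 and 0.22. The median log2 deviation of fbxb genes from their mean was 0.19, -0.15 and 0.13 in the libraries at 10 per plate, against -0.03, -0.16 and 0.07 in the solitary libraries, so libraries of the conditions overlapped. For fbxc genes 23 of 39 lay above 0, with a median of 0.04.

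The fbxb gene with the smallest p was fbxb-66, with 171, 161 and 185 counts at 10 per plate and 112, 135 and 117 counts in solitary worms, without overlap (log2 fold change 0.46, SE 0.15, adjusted p = 0.242 in edgeR). In fbxc it was fbxc-20, with 58, 46 and 29 counts at 10 per plate, against 32, 16 and 13 counts in solitary worms, with overlap (log2 fold change 1.04, SE 0.39, adjusted p = 0.318 in edgeR).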
